A study of Homo sapiens with 8 samples.

Results

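The genes described are 40 components of the machinery of the primary cilium and of the centriole at its base: 12 genes of intraflagellar transport (IFT), 10 genes of the Bardet-Biedl syndrome (BBS) group and 18 centriole and centrosome genes. They were chosen by gene symbol, and each has 1 probe set that carries its name alone, so the 40 genes are 40 of the 18417 genes with such a probe set. One further probe set carries CEP164 together with a small nucleolar RNA and was left out.

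T47D is an established human breast carcinoma line of luminal epithelial type. The cells carried lentivirus with either a conditional shRNA against EglN2, an oxygen-dependent prolyl hydroxylase, or a control shRNA named Scr. Doxycycline was used at 1 ug/ml for 0 h (day 0) or 48 h (day 2). The 4 groups were the Scr line at day 0, the Scr line at day 2, the EglN2 shRNA line at day 0 and the EglN2 shRNA line at day 2, each on 2 Affymetrix arrays of total RNA. Both lines were thus infected, and both received doxycycline at day 2. No group was kept to day 2 without the drug, so its effect and that of time in culture cannot be told apart. The labels name 1 EglN2 hairpin line and do not say whether a line is a clone or a pool, or whether the Scr hairpin is itself switched on by the drug. Nor do they tie each replicate to a culture of its own, so the p-values speak of the spread among these 8 arrays, which may be technical.

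IFT moves cargo along the microtubules of the cilium in trains made of the IFT-B complex, which travels to the tip with kinesin-2, and the IFT-A complex, which serves the return trip with dynein-2. The BBSome is a coat complex that rides on these trains and carries membrane proteins out of the cilium; its subunits are assembled with the help of chaperonin-like BBS proteins and recruited to membranes by the GTPase ARL6. The mother centriole becomes the basal body from which the cilium grows, and in dividing cells centrioles are copied once per cycle by a pathway led by the kinase PLK4. Mutations in many of these genes cause ciliopathies and, for several centriole genes, primary microcephaly.

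Levels are on the log2 scale as RMA gives them, so a difference of 1 is a change of a factor of 2. The array medians over 21214 named probe sets lay between 7.81 and 7.86, replicate arrays correlated at 0.992 to 0.997 over these probe sets, and the median standard error (SE) of a difference between groups was 0.12. EGLN2 itself, on a probe set it shares with the read-through gene RAB4B-EGLN2, read 8.85 and 9.04 in its shRNA line at day 0, then 8.26 and 8.29 at day 2, a log2 change of -0.67 (SE 0.11, limma adjusted p = 0.134). In the Scr line it read 8.97 and 9.0, then 8.81 and 8.90. Luminal markers had an array median of 11.93 to 12.35 over 13 probe sets of 10 genes, from KRT18 at 14.01 to 14.23 on 1 of its probe sets down to TFF1 at 7.48 to 8.42 and 1 probe set of ESR1 at 5.69 to 5.88, while another ESR1 probe set read 9.5 to 10.02. TFF1, an estrogen-responsive gene, had day 2 minus day 0 changes of -0.67 in the Scr line and -0.54 in the EglN2 shRNA line (limma adjusted p = 0.225 and 0.458). AGR2 and 1 probe set of ESR1 each had -0.27 in the EglN2 shRNA line, also short of the adjusted threshold. In the Scr line AGR2 had 0.12. Of the 13 luminal probe sets, 5 were positive and 8 negative in the Scr line (median -0.06), where 47.5% of all named probe sets were positive. In the EglN2 shRNA line 3 were positive and 10 negative (median -0.05), where 50.6% of all were positive. Markers of multiciliated cells, which build many motile cilia and use the same transport genes, had an array median of 6.76 to 7.0 over the 6 of 7 genes measured. They ranged from CCNO at 8.83 to 9.19 and FOXJ1 at 7.04 to 7.6 down to DNAH5 at 5.73 to 5.98. None of these 6 had an unadjusted p under 0.05 in any of the 5 comparisons. The array medians of the other marker lists were 7.11 to 7.66 for basal epithelium (2 of 3 genes), 5.04 to 5.29 for leukocytes (4 of 5), 5.73 to 6.10 for endothelium (4 probe sets of 3 genes) and 6.72 to 7.05 for fibroblasts (4 genes), and RMA values have no zero that would mark a gene as absent. In RNA of whole cultures, fewer cells of a kind and less RNA per cell cannot be told apart.

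The upstream sequences of 4 members are shown first, as examples of the letters searched for in the 3 classes. Ciliary genes are often controlled by RFX factors through the X-box, and centriole genes by cell-cycle factors. Each is the 250 bases before a RefSeq start on assembly GRCh38.p14, written 5′ to 3′ on the gene's own strand. Capitals mark every match, on either strand, to GTTGCC (an arm of the X-box), the whole X-box pattern (the arms GTNNCC and GGNAAC with 2 open positions between them), CCAAT (bound by NF-Y), TTTGAA (the cell-cycle homology region) and TTCCCGC or TTGGCGC (E2F type). IFT74 lies at chr9:26946860-26947109 on the plus strand, BBS10 at chr12:76348416-76348665 on the minus strand, CEP135 at chr4:55948695-55948944 on the plus strand and CEP152 at chr15:48811070-48811319 on the minus strand.
IFT74: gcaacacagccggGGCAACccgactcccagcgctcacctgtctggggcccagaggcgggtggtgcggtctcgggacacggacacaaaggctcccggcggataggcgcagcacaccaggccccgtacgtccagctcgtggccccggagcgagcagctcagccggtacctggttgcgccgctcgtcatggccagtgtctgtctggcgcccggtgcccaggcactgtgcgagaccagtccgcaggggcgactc
BBS10: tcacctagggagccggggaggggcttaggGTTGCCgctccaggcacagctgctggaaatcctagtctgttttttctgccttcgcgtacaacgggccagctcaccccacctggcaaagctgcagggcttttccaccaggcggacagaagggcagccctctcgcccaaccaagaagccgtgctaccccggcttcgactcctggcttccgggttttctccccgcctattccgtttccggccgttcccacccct
CEP135: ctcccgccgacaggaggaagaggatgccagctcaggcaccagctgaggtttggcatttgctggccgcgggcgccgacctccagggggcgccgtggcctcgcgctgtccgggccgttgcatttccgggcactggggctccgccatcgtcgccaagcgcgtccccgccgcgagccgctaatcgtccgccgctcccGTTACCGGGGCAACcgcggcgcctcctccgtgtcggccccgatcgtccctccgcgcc
CEP152: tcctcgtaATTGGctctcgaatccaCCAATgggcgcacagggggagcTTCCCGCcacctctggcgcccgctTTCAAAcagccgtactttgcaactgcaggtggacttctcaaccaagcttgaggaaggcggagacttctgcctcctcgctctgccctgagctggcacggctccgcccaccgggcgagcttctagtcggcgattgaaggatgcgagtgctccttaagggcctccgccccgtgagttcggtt
The IFT74 and BBS10 stretches each hold 1 X-box arm, GGCAAC from base -237 to -232 and GTTGCC from -221 to -216 counted from the start. CEP135 holds a match to the whole X-box pattern, GTTACCGGGGCAAC from -57 to -44, whose last 6 bases are also an arm match. CEP152 holds ATTGG and CCAAT, the same box on opposite strands, then TTCCCGC from -203 to -197 and TTCAAA, the reverse of TTTGAA, from -179 to -174.

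Over all members, 37 of 40 had a promoter window of 300 bases in the RefSeq table, 47 windows in all; BBS9, PCM1 and CETN3 had none. GTTGCC on either strand was in 7 of 14 IFT windows, 6 of 11 BBS windows (54.5%) and 7 of 22 centriole windows (31.8%), against 12.2% of all 35116 windows and 12.7% of the 20107 windows of tested genes. The genes with it were IFT122, IFT27, IFT46, IFT74, IFT81, IFT88, ARL6, BBS1, BBS10, BBS5, TTC8, CEP135, CEP164, CEP57, CEP97, CETN2, OFD1 and SASS6. The whole X-box pattern was in 1 window of each class, those of IFT57, ARL6 and CEP135. It was in 1.49% of all windows and 1.68% of those of tested genes. The E2F type letters were in 40.9% of centriole windows, 14.3% of IFT windows and 9.09% of BBS windows, against 9.23% of all windows and 11.7% of those of tested genes. TTTGAA was in 27.3% of centriole windows, 7.14% of IFT windows and 9.09% of BBS windows (15.2% of all and 12.3% of those of tested genes). CCAAT was in 54.5%, 42.9% and 36.4% (34.6% of all and of those of tested genes). Median GC content was 63.2% in IFT, 60.3% in BBS and 62.8% in centriole windows, and 62.7% in those of tested genes. Counted by window, X-box arms were thus most frequent in the IFT and BBS classes, and E2F type and cell-cycle homology letters in the centriole class. Some genes have several windows. Counted by gene, GTTGCC was in 6 of 12 IFT, 5 of 9 BBS and 7 of 16 centriole genes, which lie closer together. E2F type letters were in 2 of 12, 1 of 9 and 8 of 16, and TTTGAA in 1 of 12, 1 of 9 and 6 of 16. Differences between the classes were not tested. A match is a description of letters and not a bound site.

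Before the comparisons, the arrays themselves have to be described, because 2 of them stood apart for these genes. Scr day 0 replicate 1 gave the lowest of the 8 values for 26 of 40 members (65.0%, against 19.1% of all tested probe sets), and Scr day 0 replicate 2 gave the lowest for 10 more, where 11.5% of all tested did. EglN2 shRNA day 2 replicate 2 gave the highest value for 23 of 40 (57.5%, against 13.2%). Over the whole table these arrays were extreme on the opposite side as well. Scr day 0 replicate 1 gave the highest value for 20.9% of all tested probe sets, and for 1 member. EglN2 shRNA day 2 replicate 2 gave the lowest for 18.0% of all tested, and for 0 members. The median deviation of members from their own 8-array mean was -0.31 and -0.14 on the Scr day 0 arrays, 0.08 and 0.08 on the Scr day 2 arrays, 0.03 and 0.02 on the EglN2 shRNA day 0 arrays, and 0.03 and 0.23 on the EglN2 shRNA day 2 arrays. The untreated Scr arrays were thus low for these genes, replicate 1 more than replicate 2, while the remaining groups lay close together apart from 1 high array.

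**Figure D1:**
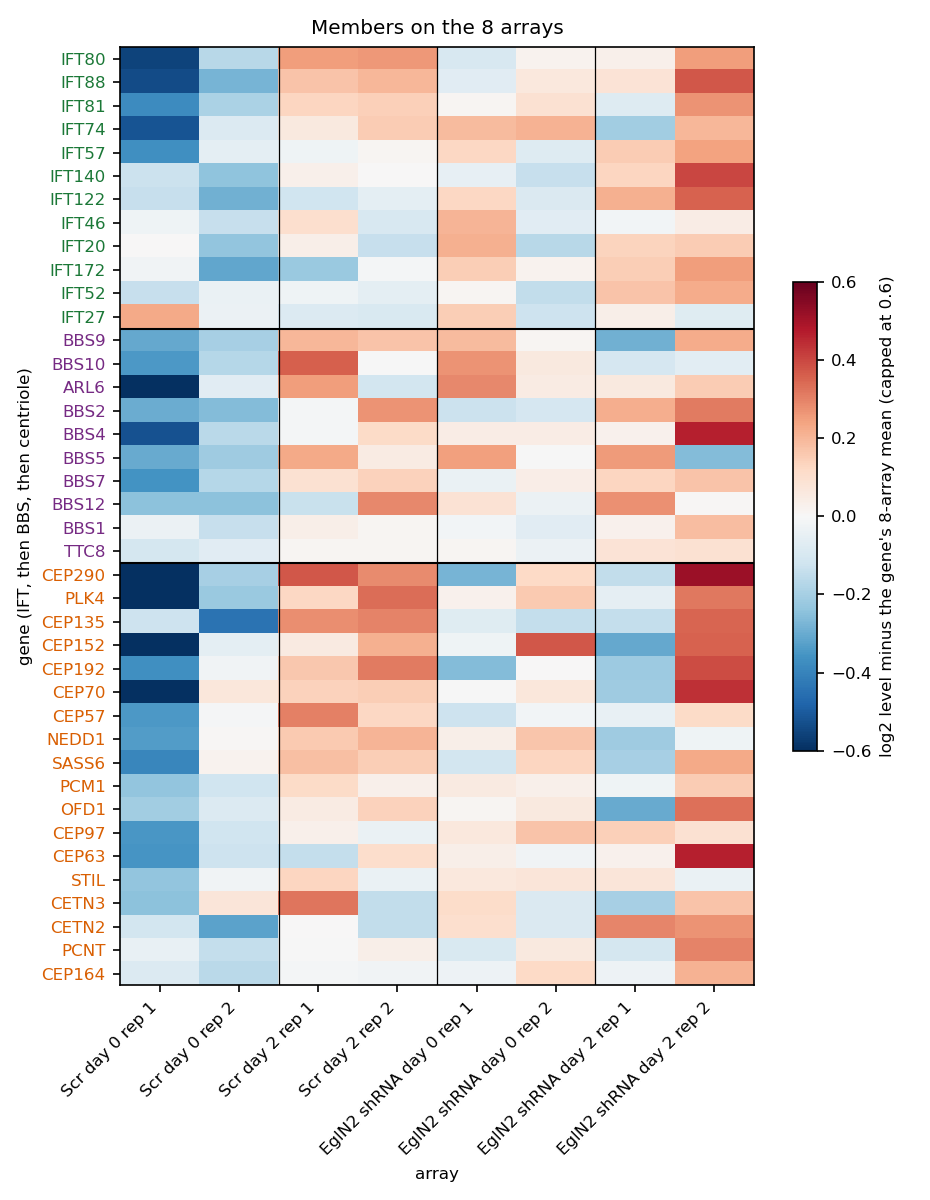
Log2 level of each of the 40 genes (rows: IFT, BBS, then centriole genes, ordered within a class by the Scr change) on each of the 8 arrays (columns), as the deviation from the gene's own mean, with the colour scale capped at 0.6. The column of Scr day 0 replicate 1 is the bluest, with a median deviation of -0.31, and that of EglN2 shRNA day 2 replicate 2 is the reddest, with 0.23.

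**Figure D2:**
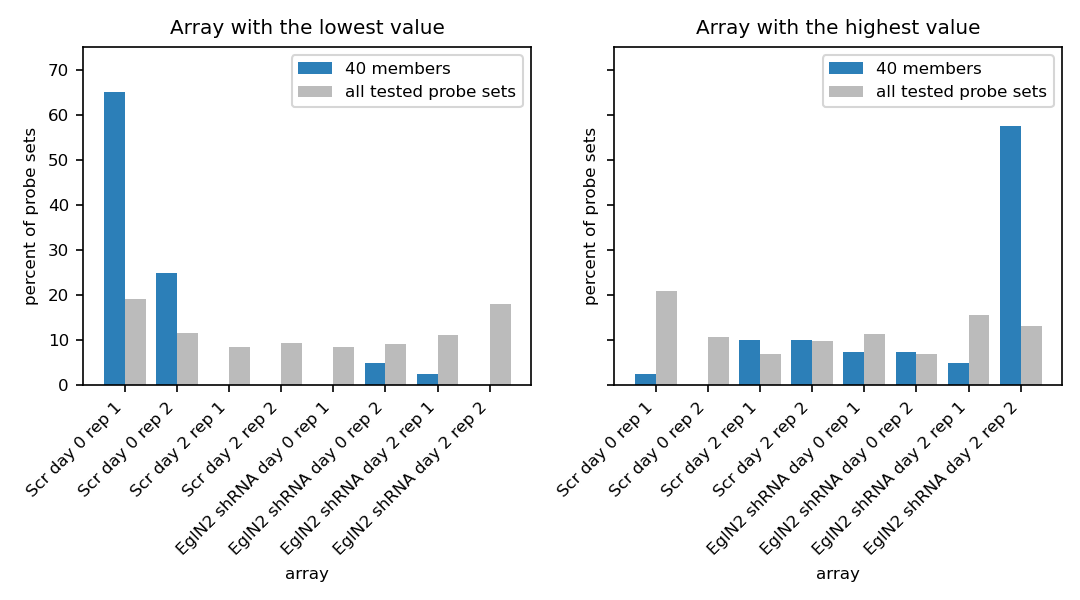
Percent of probe sets (y axis) whose lowest value (left) or highest value (right) of the 8 fell on each array (x axis), for the 40 members in blue and all 21214 tested probe sets in grey. The members' lowest values fell on Scr day 0 replicate 1 for 65.0% and their highest on EglN2 shRNA day 2 replicate 2 for 57.5%.

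Replicates disagreed most on these same arrays. Replicate 2 was above replicate 1 for 28 of 40 members in the Scr line at day 0 (median gap 0.18), where 46.9% of all tested probe sets did so, and for 34 of 40 in the EglN2 shRNA line at day 2 (median gap 0.19), where 42.9% did. The signed gaps were widest for centriole genes, with medians of 0.28 and 0.38 in those groups, while the IFT medians were -0.01 and 0.12 and the BBS medians 0.10 and 0.06. Regardless of sign, the IFT replicates at Scr day 0 lay a median of 0.25 apart, against 0.32 for centriole genes, with 6 IFT genes higher on each array. In the Scr line at day 2 and the EglN2 shRNA line at day 0 the median gaps over members were 0.00 and -0.01. Of 20 mitosis genes, 12 also had their lowest value on Scr day 0 replicate 1. In the EglN2 shRNA line at day 2, replicate 2 was above replicate 1 for 18 of the 20. There replicate 2 gave the highest of the 8 values for only 1 mitosis gene, while replicate 1 gave the lowest for 5. The array with most of their highest values was Scr day 2 replicate 1, with 11. What set Scr day 0 replicate 1 and EglN2 shRNA day 2 replicate 2 apart for the members was not tested. Medians over members or classes without them are given beside the comparisons they enter, though not for every class.

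The first comparison gives the change from day 0 to day 2, over 48 h with doxycycline, in the line with the control hairpin. Of the 40 members, 39 had a positive change from day 0 to day 2 (47.5% of all tested probe sets did), with a median of 0.33 against -0.01 over all tested probe sets. No member passed the adjusted threshold of 0.05, which no tested probe set passed in this comparison either (0.0%); the smallest adjusted p of a member was 0.229, for IFT88. At an unadjusted p under 0.05, 16 members were positive and 0 negative, where 7.49% of all tested probe sets were positive and 5.36% negative. The day 2 arrays were both above the day 0 arrays for 30 members and both below for 1, where these shares were 23.0% and 24.8% of all tested probe sets. By class the median change was 0.16 for IFT genes, 0.40 for BBS genes and 0.30 for centriole genes.

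Among the IFT-B genes, 4 genes had the largest changes. IFT88, a core subunit whose loss abolishes cilia, read 7.47 and 7.73 at day 0, then 8.18 and 8.21 at day 2, a log2 change of 0.59 (SE 0.13, 95% interval 0.30 to 0.89, limma adjusted p = 0.229). IFT80, mutated in a skeletal ciliopathy, read 9.36 and 9.75, then 10.17 and 10.18, a change of 0.62 (SE 0.14, adjusted p = 0.234). IFT81, which with IFT74 forms the tubulin-binding module of the train, read 8.10 and 8.29, then 8.61 and 8.62, a change of 0.42 (SE 0.13, adjusted p = 0.300). In all 3 the day 2 arrays lay within 0.03 of each other and above both day 0 arrays, and replicate 1 was the lower day 0 array. IFT74, the partner of IFT81, had a change of 0.40 and was the fourth IFT gene with an unadjusted p under 0.05.

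The other IFT genes had smaller changes, with intervals that included 0. IFT57 had a change of 0.21, IFT46 0.09, IFT20 0.07, IFT52 0.05 and IFT172 0.05, with SEs of 0.10 to 0.15. IFT27, a Rab-like GTPase of the train, was the only member with a negative change: it read 8.53 and 8.27 at day 0, then 8.22 and 8.21 at day 2, a change of -0.18 (SE 0.13). The IFT-A subunits IFT140 and IFT122 had changes of 0.20 and 0.12, both SEs being 0.12.

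The BBS genes were more alike in their changes than the IFT genes, in a range of 0.10 to 0.44. BBS7 read 6.75 and 6.94 at day 0, then 7.2 and 7.25 at day 2, a change of 0.38 (SE 0.11, adjusted p = 0.266). BBS2, which binds BBS7 in the BBSome, read 8.73 and 8.77, then 9.02 and 9.30, a change of 0.41 (SE 0.12, adjusted p = 0.266). BBS10, a chaperonin-like protein needed to assemble the complex, read 8.64 and 8.81, then 9.34 and 8.98, a change of 0.43 (SE 0.14, adjusted p = 0.310). The groups did not overlap for any of the 3, but the day 2 arrays of BBS10 lay 0.36 apart. The subunits BBS9 (0.44), BBS4 (0.40) and BBS5 (0.40) had similar changes, ARL6, which recruits the coat to membranes, had 0.41 with overlapping arrays, and the chaperonin-like BBS12 had 0.32. BBS1 and TTC8, 2 further subunits, had changes of 0.11 and 0.10.

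Among centriole genes the largest changes belonged to the duplication kinase and to large scaffold proteins. PLK4, the kinase that starts centriole duplication, read 7.85 and 8.30 at day 0, then 8.65 and 8.86 at day 2, a change of 0.68 (SE 0.17, 95% interval 0.29 to 1.07, limma adjusted p = 0.260). CEP135, which links the cartwheel to the centriole wall, read 7.49 and 7.17, then 7.89 and 7.91, a change of 0.57 (SE 0.16, adjusted p = 0.266). CEP290, a protein of the ciliary transition zone and of centriolar satellites, read 6.88 and 7.34, then 7.91 and 7.82, a change of 0.76 (SE 0.23, adjusted p = 0.280). CEP135 differed from PLK4 and CEP290 in having its lower day 0 value on replicate 2. The remaining duplication genes read positive as well: CEP152, a scaffold for PLK4, had 0.46, its partner CEP192 0.43, the cartwheel protein SASS6 0.35, CEP63 0.22 and STIL 0.18, and each SE was 0.12 or more.

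The pericentriolar and satellite genes completed the class. CEP70 had a change of 0.43, CEP57 0.39, and NEDD1, which brings gamma-tubulin to the centrosome, 0.35. PCM1, the scaffold of the satellites, had 0.25, OFD1 0.24 and CEP97, a cap of the centriole's distal end, 0.23. The centrins CETN3 and CETN2 had 0.17 and 0.14, the pericentriolar scaffold PCNT 0.11 and the distal appendage protein CEP164 0.10. CEP57, NEDD1 and PCM1 had an unadjusted p under 0.05, as did PLK4, CEP135 and CEP290, and the other 12 centriole genes did not.

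Without Scr day 0 replicate 1 the members' median change was 0.19 instead of 0.33, with 38 of 40 still positive and 6 instead of 16 at an unadjusted p under 0.05, where the share of all tested probe sets was 7.56% instead of 12.9%. The count was 9 without Scr day 2 replicate 1 (8.57% of all tested) and 10 without Scr day 2 replicate 2 (5.67%). With Scr day 0 replicate 1 left out, the centriole median was 0.17, the BBS median 0.30 and the IFT median 0.19. Of single genes in that setting, IFT80 had 0.42, PLK4 0.45 and CEP290 0.52, while CEP135 had 0.73.

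**Figure D3:**
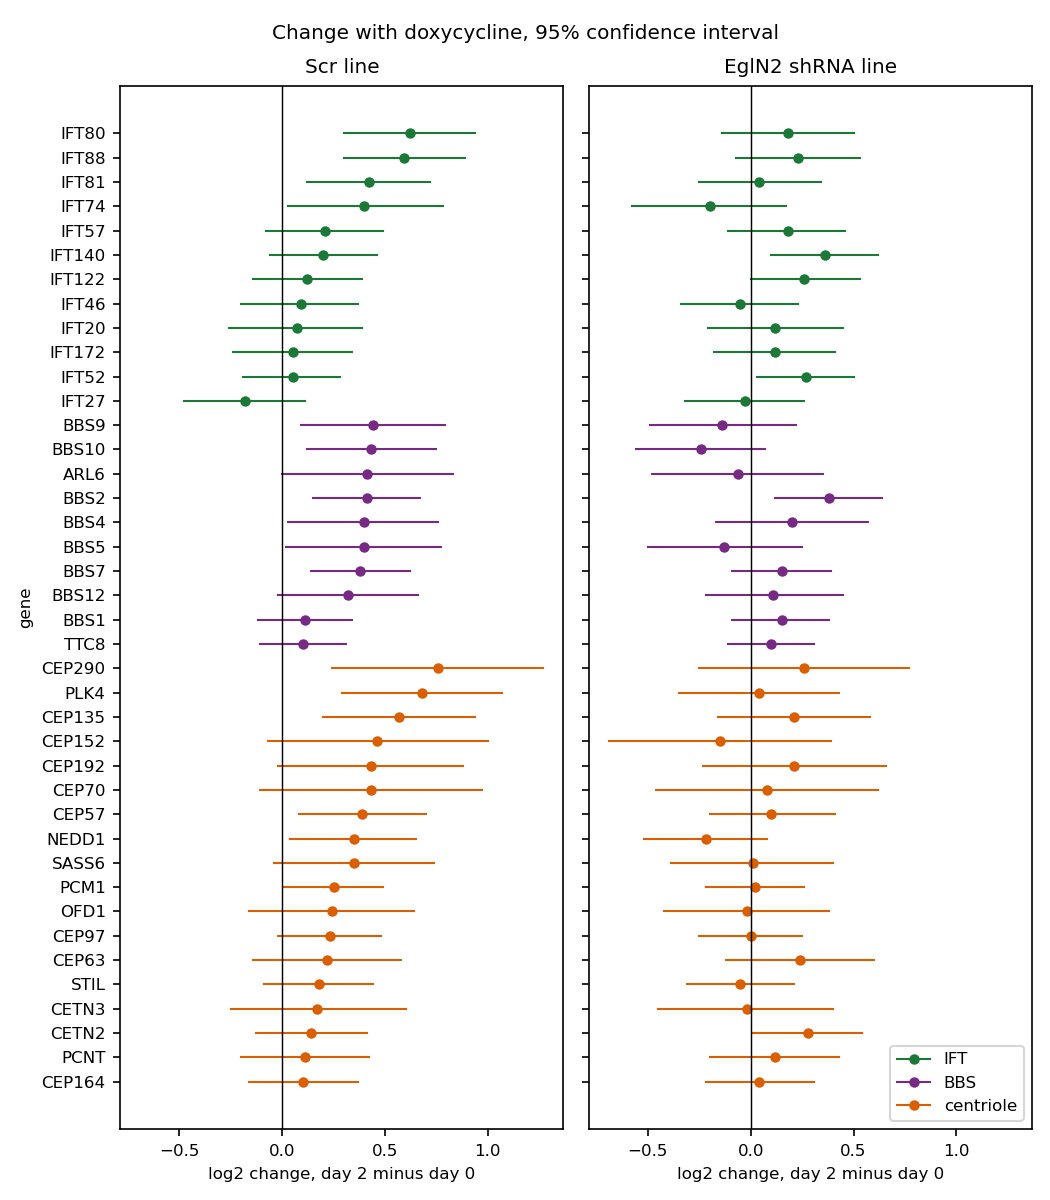
Log2 change from day 0 to day 2 (x axis) of each gene (y axis) in the Scr line (left) and the EglN2 shRNA line (right); points are limma estimates and bars their 95% confidence intervals, n = 2 arrays per group. In the Scr line 39 of 40 points lie above 0, and in the EglN2 shRNA line 27.

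The second comparison asks for the same change from day 0 to day 2 where the hairpin targets EglN2. Here 27 members were positive (50.6% of all tested) and 12 negative, with a median of 0.10 against 0.00 over all tested probe sets. No member passed the adjusted threshold (0.00943% of tested probe sets did), and the smallest adjusted p was 0.627, for BBS2. At an unadjusted p under 0.05 there were 5 positive members and 0 negative ones, where 2.73% and 3.04% of all tested probe sets stood. Groups did not overlap for 11 members upward and 2 downward (15.2% and 15.5% of all tested). The class medians were 0.15 for IFT, 0.11 for BBS and 0.04 for centriole genes.

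Among the transport genes IFT140, a core subunit of IFT-A, had the largest change in this line. It read 8.29 and 8.20 at day 0, then 8.47 and 8.74 at day 2, a change of 0.36 (SE 0.12, adjusted p = 0.709). IFT122, also of IFT-A, had a change of 0.26 (SE 0.12). Of the IFT-B genes, IFT52 read 8.42 and 8.26, then 8.58 and 8.63, a change of 0.27 (SE 0.10, adjusted p = 0.779). These 3 were the IFT genes with an unadjusted p under 0.05, and in each both day 2 arrays were above both day 0 arrays. IFT88 had 0.23 and IFT80 0.18, IFT81 had 0.04, and IFT74 had -0.20 with overlapping arrays.

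BBS2 had the largest change of any member here: it read 8.90 and 8.93 at day 0, then 9.25 and 9.34 at day 2, a log2 change of 0.38 (SE 0.12, 95% interval 0.12 to 0.64). BBS10 had the largest negative one and read 9.25 and 9.04, then 8.88 and 8.92, a change of -0.24 (SE 0.14, adjusted p = 0.933). The groups of BBS10 did not overlap, in the direction opposite to its Scr change. The other BBS genes lay between -0.14 for BBS9 and 0.20 for BBS4.

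Among centriole genes CETN2, a calcium-binding centrin that also serves in nucleotide excision repair, read 10.17 and 9.98 at day 0, then 10.36 and 10.34 at day 2, a change of 0.28 (SE 0.12, adjusted p = 0.852). NEDD1 read 10.03 and 10.16, then 9.78 and 9.97, a change of -0.22 (SE 0.13, adjusted p = 0.942). PLK4 read 8.55 and 8.68, then 8.47 and 8.84, a change of 0.04 (SE 0.17), and CEP290 read 7.26 and 7.66, then 7.39 and 8.05, a change of 0.26 (SE 0.23). In PLK4 and CEP290 the day 2 replicates lay farther apart than the group means, with replicate 2 the higher. The 7 duplication genes had a median of 0.04 and the other 11 centriole genes 0.04.

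The 2 day 2 arrays of this line gave different pictures of the class. Without replicate 2 the centriole median was -0.08 and the median of all members -0.01; without replicate 1 they were 0.22 and 0.20, with 13 members at an unadjusted p under 0.05 instead of 5 (8.04% of all tested, against 5.77%). The count was 1, with 0 IFT genes, without EglN2 shRNA day 0 replicate 2 (4.38% of all tested), and 2 when Scr day 2 replicate 1 or replicate 2 was left out (4.66%), arrays that enter only through the shared estimate of spread. When EglN2 shRNA day 2 replicate 2 or replicate 1 was left out, CETN2 stayed near its value, with 0.29 and 0.27. BBS10 did too, with -0.26 and -0.23. At day 0 the arrays of this line lay farther apart for both genes. Replicate 2 minus replicate 1 was -0.19 for CETN2 and -0.21 for BBS10 there, against -0.02 and 0.04 at day 2.

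**Figure D4:**
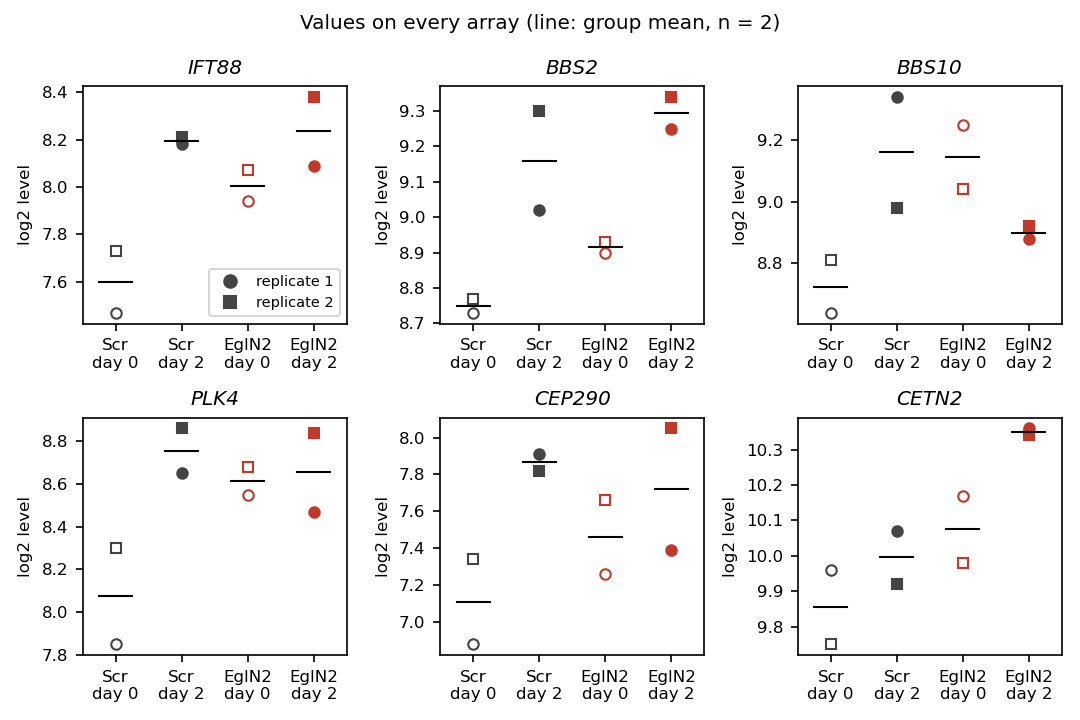
Log2 level (y axis, a separate range for each gene) of IFT88, BBS2, BBS10, PLK4, CEP290 and CETN2 on every array by group (x axis); circles are replicate 1, squares replicate 2 and lines group means (n = 2). BBS10 read 9.34 and 8.98 in the Scr line at day 2 and 8.88 and 8.92 in the EglN2 shRNA line, while the PLK4 values of the groups other than Scr day 0 lie between 8.47 and 8.86.

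The difference between the 2 changes, EglN2 shRNA minus Scr, tests whether the change from day 0 to day 2 differed between the lines. It was negative for 29 members and positive for 10 (50.7% of all tested), with a median of -0.23 against 0.01 over all tested probe sets. No member passed the adjusted threshold, nor did any tested probe set (0.0%), and the smallest adjusted p was 0.676. At an unadjusted p under 0.05 there were 5 negative members and 0 positive ones (3.98% and 3.14% of all tested), namely BBS10, NEDD1, PLK4, BBS9 and IFT74. All 4 possible changes of the EglN2 shRNA line lay below those of the Scr line for 10 members and above for 1 (10.4% and 10.1% of all tested).

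BBS10 had the largest difference, -0.68 (SE 0.20, 95% interval -1.12 to -0.24, limma adjusted p = 0.676), followed by PLK4 with -0.64 (SE 0.24, adjusted p = 0.678). BBS9, a BBSome subunit, read 7.45 and 7.56, then 7.96 and 7.93 in the Scr line, and 7.95 and 7.77, then 7.47 and 7.98 in the EglN2 shRNA line, a difference of -0.57 (SE 0.22, adjusted p = 0.679). IFT74 read 7.13 and 7.57, then 7.71 and 7.80 in the Scr line, and 7.84 and 7.86, then 7.44 and 7.85 in the EglN2 shRNA line, a difference of -0.61 (SE 0.24, adjusted p = 0.680). BBS9 and IFT74 share a form: the Scr day 0 arrays are low, and 1 of the 2 EglN2 shRNA day 2 arrays is low. NEDD1 read 9.66 and 10.00, then 10.15 and 10.20 in the Scr line, and its difference was -0.57 (SE 0.19, adjusted p = 0.676). IFT80, the second IFT gene by p, had -0.44 (SE 0.20, adjusted p = 0.697).

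The classes did not share this difference equally. The median was -0.24 for centriole genes, with 15 of 18 negative, and -0.22 for BBS genes, with 8 of 10 negative, while the IFT genes had 6 negative and 6 positive and a median of 0.01. Within IFT the negative side held IFT74, IFT80, IFT81 (-0.38), IFT88 (-0.36), IFT46 (-0.14) and IFT57 (-0.03), and both IFT-A subunits were on the positive side. This split was not tested as such. Without Scr day 0 replicate 1 the medians were -0.07 for IFT, -0.17 for BBS and -0.12 for centriole genes, with 1 member at an unadjusted p under 0.05 (5.09% of all tested, against 7.12% with all arrays). Without EglN2 shRNA day 2 replicate 2 the centriole median was -0.45 and 14 members were under 0.05 (16.5% of all tested). The count was 11 without Scr day 0 replicate 2 (11.2%), and 3 without Scr day 2 replicate 2, EglN2 shRNA day 2 replicate 1 or 1 of the EglN2 shRNA day 0 arrays (4.16% to 5.35%).

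The lines were also compared before doxycycline. At day 0, 39 of 40 members had a positive difference, EglN2 shRNA minus Scr (50.1% of all tested probe sets), with a median of 0.23 against 0.00 over all tested probe sets. None passed the adjusted threshold, and no tested probe set did (0.0%); the smallest adjusted p was 0.455. At an unadjusted p under 0.05, 12 members were positive and 0 negative (5.16% and 5.27% of all tested), and groups did not overlap for 25 upward and 0 downward (22.2% and 22.9%). The class medians were 0.23 for IFT, 0.31 for BBS and 0.21 for centriole genes. Without Scr day 0 replicate 1 they were 0.22, 0.22 and 0.12. Positive differences were then held by 34 of 40 members and 13 of 18 centriole genes. This comparison and the Scr change share the Scr day 0 arrays, so a low value there enters both.

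The members with the smallest p were IFT88 and IFT74 among IFT genes, with differences of 0.40 (SE 0.13) and 0.50 (SE 0.17), BBS10 and ARL6 among BBS genes, with 0.42 (SE 0.14) and 0.51 (SE 0.19), and PLK4 and CEP97 among centriole genes, with 0.54 (SE 0.17) and 0.35 (SE 0.11). For each of the 6 the limma adjusted p was 0.455. At day 0 IFT88 read 7.94 and 8.07 in the EglN2 shRNA line, above both Scr values. ARL6 read 7.22 and 7.77 in the Scr line and 8.13 and 7.89 in the EglN2 shRNA line. CEP97 read 8.43 and 8.66 in the Scr line and 8.84 and 8.95 in the EglN2 shRNA line. In each of these 3 the Scr arrays were the lower ones, with replicate 1 lowest. Without that array the differences were 0.27 for IFT88, 0.28 for IFT74, 0.34 for BBS10, 0.24 for ARL6, 0.31 for PLK4 and 0.24 for CEP97, and the median over members was 0.16, with 2 members at an unadjusted p under 0.05, a share near the 5.63% of all tested probe sets. The count was 5 and 4 without EglN2 shRNA day 0 replicate 1 and 2 (5.97% and 6.25% of all tested) and 7 when 1 of the Scr day 2 arrays was left out (8.24%).

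After 48 h of doxycycline the members were split in sign between the lines: 21 members were positive (50.3% of all tested) and 19 negative, with a median of 0.02 against 0.00 over all tested probe sets. No member passed the adjusted threshold, which 0.0754% of tested probe sets passed, and the smallest adjusted p was 0.640. There were 4 positive members and 0 negative ones at an unadjusted p under 0.05 (2.49% and 2.69% of all tested), and groups did not overlap for 10 upward and 3 downward (15.6% and 14.8%). The split rested on the EglN2 shRNA day 2 arrays: without replicate 1, 33 of 40 were positive (median 0.12) with 7 under 0.05 (7.13% of all tested), and without replicate 2, 16 were positive (median -0.02). Without Scr day 2 replicate 1, 1 member was under 0.05 (3.6% of all tested).

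The classes pointed different ways at day 2. IFT genes had a median difference of 0.13, with 9 of 12 positive. IFT122 read 9.11 and 9.17 in the Scr line and 9.44 and 9.58 in the EglN2 shRNA line, a difference of 0.37 (SE 0.12, adjusted p = 0.640). IFT172, an IFT-B subunit, read 7.78 and 7.99 in the Scr line and 8.15 and 8.25 in the EglN2 shRNA line, a difference of 0.32 (SE 0.13, adjusted p = 0.932). Both EglN2 shRNA arrays were the higher ones in each. IFT140 (0.25) and IFT52 (0.24) followed. BBS genes had a median of 0.05, with BBS10 at -0.26 (SE 0.14, adjusted p = 0.995) and BBS9 at -0.22 (SE 0.16, adjusted p = 0.995).

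Centriole genes had a median of -0.09 at day 2, with 13 of 18 negative. CETN2 read 10.07 and 9.92 in the Scr line and 10.36 and 10.34 in the EglN2 shRNA line, a difference of 0.35 (SE 0.12, adjusted p = 0.736), the class's only unadjusted p under 0.05. NEDD1 had -0.30 (SE 0.13, adjusted p = 0.960), with both EglN2 shRNA arrays the lower ones. The centriole median was 0.13 without EglN2 shRNA day 2 replicate 1 and -0.28 without replicate 2, so its sign depended on which of these 2 arrays was kept. The IFT median stayed positive whichever array was left out.

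**Figure D5:**
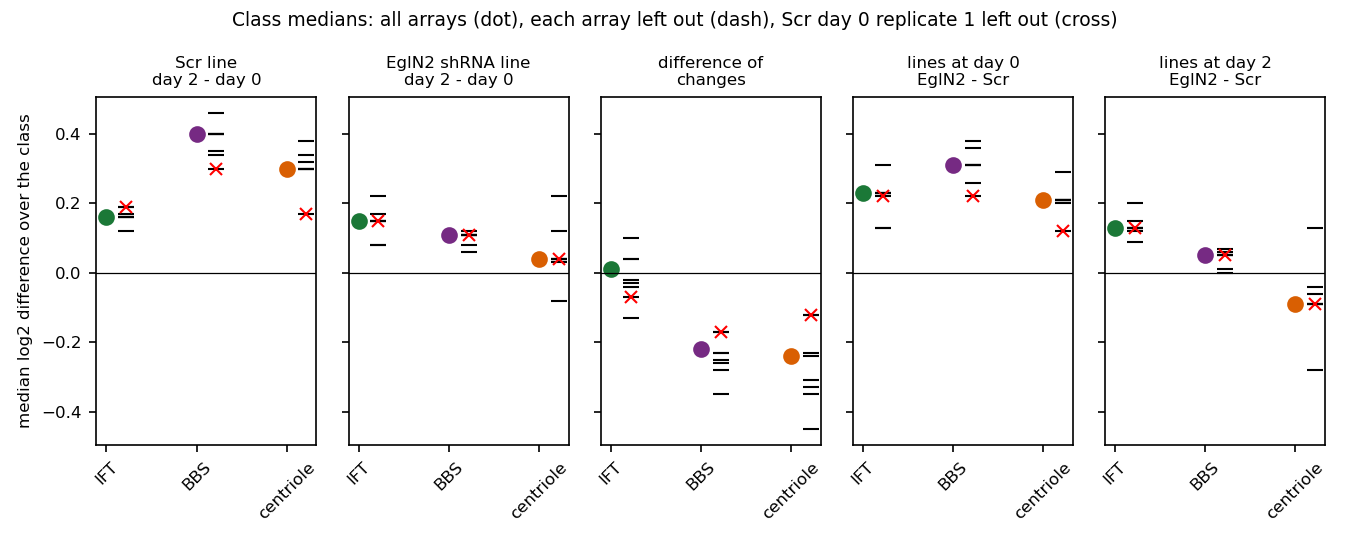
Median log2 difference over the IFT, BBS and centriole genes (x axis) in the 5 comparisons (panels); dots use all 8 arrays, dashes leave out 1 array each and crosses leave out Scr day 0 replicate 1. In the Scr line the centriole median went from 0.30 to 0.17 without that array, and at day 2 between the lines the centriole dashes lie on both sides of 0.

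Other genes of the same pathways, listed by function, were set beside the members; none passed the adjusted threshold in any comparison. Of 16 probe sets of 15 further IFT and ciliary motor genes, 11 were positive in the Scr change (median 0.10, and 0.06 without Scr day 0 replicate 1), with DYNC2H1, the heavy chain of dynein-2, at 0.53 and 0.50 on its 2 probe sets, TTC21B of IFT-A at 0.37 and TULP3, which brings receptors into cilia with IFT-A, at -0.36. TULP3 was the gene of this list with the smallest p between the lines at day 2, with 0.43 (SE 0.10, limma adjusted p = 0.344), and KIFAP3, the accessory subunit of kinesin-2, had the smallest at day 0, with 0.45 (SE 0.11, adjusted p = 0.455). Of 12 further BBS and ciliary trafficking genes, 9 were positive in the Scr change (median 0.15), among them ARL3 (0.36), RAB23 (0.36), TRIM32 (0.35) and MKKS (0.19). LZTFL1, which regulates BBSome traffic into cilia, had a difference between the lines at day 0 of 0.64 (SE 0.12), which did not pass the adjusted threshold (adjusted p = 0.447). At day 0, 14 of the 16 probe sets of the first list and 9 of the 12 of the second were positive.

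The lists nearer the centriole read as follows in the Scr line. Of 20 transition zone genes 16 were positive (median 0.15), with TMEM67 at 0.69 and TCTN2 at 0.49, 2 membrane-associated proteins of that gate. Of 12 genes of the distal appendages and of the start of the cilium 10 were positive (median 0.11). CEP89 had 0.40 and CCP110, the partner of CEP97, 0.37. Of 22 further centriole duplication and length genes 19 were positive (median 0.28). At an unadjusted p under 0.05, 10 were positive and 0 negative, where 7.49% and 5.36% of all tested probe sets stood. Among the 10 were CEP44 (0.53), CEP41 (0.52), TUBD1 (0.38) and CEP78 (0.35). Of 18 probe sets of 17 gamma-tubulin and augmin genes 15 were positive (median 0.14), with HAUS2 and HAUS4 of the augmin complex each at 0.49. The further centriole genes thus had the largest median of these 4 lists. Without Scr day 0 replicate 1 the 4 medians were 0.12, 0.08, 0.18 and 0.08 in the same order.

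Genes of mitosis, which divides the centrosomes between daughter cells, were read beside the centriole genes. Of 20 mitosis genes, 19 were positive in the Scr change with a median of 0.26. At an unadjusted p under 0.05, 8 were positive, where 7.49% of all tested probe sets were. In the EglN2 shRNA line 17 of 20 were negative (median -0.12). The median difference of changes was -0.32, with 6 negative genes under 0.05 (3.98% of all tested). Between the lines the median was 0.15 at day 0 and -0.17 at day 2, where all 20 were negative. The EglN2 shRNA line's median was -0.01 without day 2 replicate 1 and -0.2 without replicate 2, and the Scr median 0.20 without Scr day 0 replicate 1. The median difference of changes was then -0.24, -0.40 and -0.27, and at day 2 the median between the lines was -0.11 and -0.25 without those EglN2 shRNA arrays. The centriole members had medians of 0.30, 0.04, -0.24, 0.21 and -0.09 in the same 5 comparisons. The part of these genes' changes in those of the centriole members was not tested.

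Within the classes, members that act in 1 complex had spread values. In the Scr line the IFT-B changes ran from -0.18 to 0.62 and the BBSome subunits from 0.10 to 0.44, while the median was 0.43 for the 7 duplication genes (PLK4, STIL, SASS6, CEP152, CEP135, CEP192 and CEP63) and 0.24 for the other 11 centriole genes. In the EglN2 shRNA line the corresponding medians were 0.12 for IFT-B, 0.31 for the 2 IFT-A subunits, 0.15 for the BBSome subunits and 0.04 for both centriole sets, the last being 0.23 and 0.19 without day 2 replicate 1 and -0.09 and -0.08 without replicate 2. Without Scr day 0 replicate 1 the medians of the duplication genes and the other centriole genes in the Scr line were 0.19 and 0.17. The difference of changes was -0.68 for the chaperonin-like BBS10 but -0.21 for BBS12, whose arrays overlapped. Its median over the duplication genes was -0.34, with -0.14 without Scr day 0 replicate 1, -0.13 without EglN2 shRNA day 2 replicate 1 and -0.56 without replicate 2. These comparisons share arrays with one another, so their values are set side by side and not as independent evidence.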

How the data were processed

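Per the submitters' processing notes, the authors processed the arrays with RMA, using Affymetrix Expression Console, and deposited 1 log2 level for each probe set and array. The software versions and the genome build were not given in the sources used here. This method subtracts background, puts the arrays on 1 distribution and combines the probes of a set, and it compresses differences of dim genes. Values were used as deposited. Of 33297 probe sets, 19460 carry 1 gene name in the platform table, 1754 several and 12083 none. The 21214 named ones were fitted to 4 group means over 8 arrays and tested with limma 3.58.1, run in R 4.3.3 (moderated by eBayes, two-sided, Benjamini-Hochberg over all tested, threshold 0.05). An exact permutation test of 2 against 2 arrays cannot go below p = 0.333. The scripts were tested on simulated data. Array number limits the precision.

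Members, role groups and the lists beside them were chosen with earlier results of these data known, so a direction already seen is not independent support. Array values were given for the 3 members of each class with the smallest p in the Scr change and the 2 in each other comparison, and up to 4 genes of other lists were named. The X-box pattern with open positions was added after the other motifs, and the printed promoters were picked with values known. Protein sequences were not used here. Alternatives were another normalization, filters, fits and arrays left out.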

Additional observations from a re-analysis of the deposited data

Results flagged for a closer look

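BBS10 and NEDD1 had changes of opposite direction in the 2 lines: every possible change from a day 0 to a day 2 array was positive in the Scr line and negative in the EglN2 shRNA line. The difference of changes was -0.68 for BBS10 and -0.57 for NEDD1, and its own test did not pass (limma adjusted p = 0.676 for both). Such opposite moves, in this direction or the reverse, were seen in 2 of 40 members (5.0%) and in 5.69% of all tested probe sets. Without Scr day 0 replicate 1 the differences were -0.59 and -0.40.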

How the results depend on the processing

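No member passed the adjusted threshold in any comparison under any of the 17 other settings. Of 555 values of named members under those settings, 1 changed direction: BBS9 between the lines at day 2 read 0.04 without EglN2 shRNA day 2 replicate 1. Many of these settings change only the estimate of spread or the probe sets included, or leave out an array of a group not compared. Differences between group means then stay as they were, so this count says little about how steady the directions are. The count of all probe sets called varied between settings. In the Scr line it was 0 with all arrays, 6 with an intensity-dependent prior (trend) and 42 with a replicate block. In the EglN2 shRNA line it was 2, then 0 with only the 4 arrays compared, 0 with unnamed probe sets included and 13 with a replicate block. For the difference of changes it was 0, then 2 with the trend. Between the lines at day 2 it was 16, then 26 with the trend, 0 with only the arrays compared, 0 with all probe sets and 32 with a replicate block. Leaving out 1 array at a time gave 0 to 2 called in the EglN2 shRNA line and 0 to 15 between the lines at day 2. The members' median ranged from 0.19 to 0.38 in the Scr line, from -0.01 to 0.20 in the EglN2 shRNA line, from -0.33 to -0.11 for the difference of changes and from -0.02 to 0.12 between the lines at day 2. A group left with 1 array was assumed to vary like the others. The cause of these shifts was not tested.

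Same-numbered arrays deviated together, with 6 positive correlations of 0.0981 to 0.271. The labels tie the numbers to no culture or day and 1 correlation was under 0.1, so the block was kept as an alternative. With the replicate block 20 members had an unadjusted p under 0.05 in the Scr line (17.0% of all tested probe sets, against 12.9% without the block), the smallest adjusted p being 0.0577. Keeping 1 probe set per gene gave the same members, and the difference of changes uses all 8 arrays, so no fit on fewer was made.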
